A study of Marchantia polymorpha and Klebsormidium nitens with 125 samples.

Results

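MpPTB4 (Mp4g16560) and MpPTB8 (Mp4g19700) are genes for phosphate transporters of type B in the liverwort Marchantia polymorpha. These 2 genes, of 19355 in the count tables and of 8 that carry the symbol PTB, are described across all starvation, resupply and mutant groups. They were chosen by their values in wild-type plants, which were higher under phosphate starvation and lower after phosphate was given back. Those comparisons are therefore given as values without a test, and tests are kept for libraries that played no part in the choice. MpPTB4 had at most 5 counts per group in the controls and the nitrate-starved or sucrose-starved plants of the starvation experiments, and at least 178 counts in every phosphate-starved library. MpPTB8 was present in all libraries, and in the starvation experiments it was several-fold higher in phosphate-starved plants than in the controls.

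Plants take up phosphate as the inorganic ion, which is scarce in many soils, and raise the genes of high-affinity transporters when it runs short. Type B transporters belong to a family of sodium and phosphate symporters related to Pho89 of budding yeast, are found in streptophyte algae and bryophytes, and are absent from seed plants. Seed plants rely on PHT1 transporters, which carry phosphate together with protons. In Arabidopsis the response to phosphate shortage is driven by PHR transcription factors, which SPX proteins hold back while phosphate is plentiful.

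RNA came from whole gemmalings, young plants grown from gemmae, the vegetative buds by which liverworts propagate. Plants grew for 7 days in liquid Yamagami medium and then for 5 days in medium with 1% of the phosphate, 1% of the nitrate or 0% of the sucrose, and recovering plants were put back in full medium for 6, 24 or 72 h. The labels do not give the age of the control plants at harvest. Tak-1, a male strain, supplied the time course of 13 groups and 39 libraries: a control in full medium, plants starved of phosphate, nitrate or sucrose, and plants 6, 24 and 72 h after each nutrient was returned. Mutants of 3 transcription factor genes, Mpcsd-2, Mperf20-21 and Mphd9-14, each represented by 1 line and called knock-outs in the series' design text, supplied 35 libraries in 12 groups, each mutant in full medium and after each starvation. A further 12 libraries held the 3 mutants and Tak-1 in full medium. These are 3 separate experiments with 3 separate count tables, and levels are set side by side across them only as a description. Groups had 3 libraries each, except sucrose-starved Mperf20-21, which had 2.

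Totals ran from 16878159 to 38992957 counts per library over the 86 libraries. Levels are counts divided by the library total and multiplied by 1000000 (CPM), given per library or as the mean ± SD over 3 libraries where no other number is stated. Changes are log2 fold changes ± SE, and a gene was called where the Benjamini-Hochberg adjusted p over all tested genes was under 0.05. Levels of different genes were not compared, since no transcript lengths were used. In every library genes with V chromosome identifiers were detected, at 2060 to 6810 CPM in sum, and genes with U chromosome identifiers were at 0, the pattern of male plants. None of the mutated genes was near 0 in its own mutant: in full medium of the starvation experiment MpCSD was at 646 ± 72.8 CPM in Mpcsd-2, MpERF20 at 3.25 ± 0.462 CPM in Mperf20-21 and MpHD9 at 22.9 ± 1.32 CPM in Mphd9-14. Transcript levels therefore do not check the mutant labels, and the labels do not describe the lesions. The sample is the whole plant, so more cells expressing a gene and more RNA per cell cannot be told apart for any result below.

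In the Tak-1 time course MpPTB4 was barely detected in the control and was clearly detected under phosphate starvation. The control libraries held 1, 0 and 0 counts of MpPTB4, and the phosphate-starved libraries held 178, 489 and 296, which are 6.09, 22.4 and 9.65 CPM. The ratio over the summed counts was 965, with a 95% exact binomial interval of 173 to 38100 that covers counting error only and is wide because the control rests on 1 count. Without that control library the group has 0 counts. MpPTB8 went from 19.8, 25.1 and 20.2 CPM in the control libraries to 126, 296 and 169 CPM in the phosphate-starved ones, a log2 fold change of 3.14 ± 0.28. For both genes all starved libraries were above all control libraries, and replicate 2 was the highest of the starved ones. That library also had a lower correlation across genes with its group (mean Pearson r = 0.9815) than all but 1 other library of the time course, and without it the change of MpPTB8 was 2.72. In this contrast, which chose the genes, 12.3% of 13504 tested genes were called higher, and nothing is read from their place in it.

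Neither nitrate nor sucrose starvation brought Tak-1 plants near those levels. Nitrate-starved libraries held 2, 0 and 3 counts of MpPTB4 and sucrose-starved libraries 0, 0 and 2. The ratio of nitrate-starved to control counts was 4.24, with a counting interval of 0.475 to 201 that includes no change, and the sucrose-starved and control counts were both too few for a ratio. MpPTB8 was at 50.6, 25.8 and 22.7 CPM under nitrate starvation, where replicate 1 stood above the other libraries, and at 28.3, 20 and 32.7 CPM under sucrose starvation. Both groups overlapped with the control. The log2 difference of MpPTB8 from the control was 0.60 ± 0.28 for nitrate, or 0.11 without replicate 1 of the nitrate-starved group, and 0.38 ± 0.28 for sucrose.

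**Figure D1:**
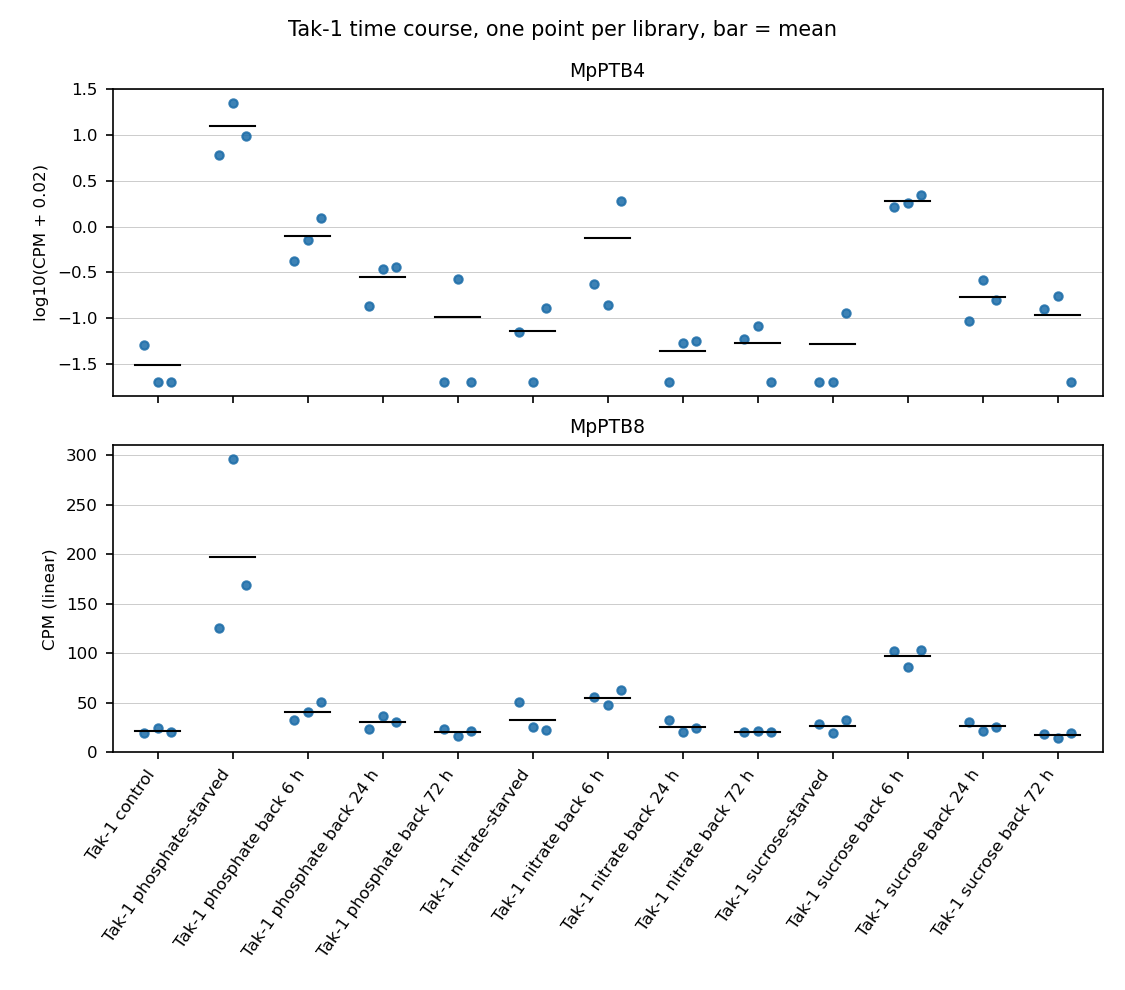
Levels of MpPTB4 (upper panel, log10 of CPM plus 0.02) and MpPTB8 (lower panel, CPM on a linear axis) in the 13 groups of the Tak-1 time course, with a point per library and a bar at the group mean. Both genes are highest in phosphate-starved plants, and the next highest group for both is the one 6 h after sucrose was returned, at 1.86 CPM for MpPTB4 and 97.2 CPM for MpPTB8.

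Return of phosphate was followed by lower levels of both transporters at each time sampled. MpPTB4 held 10, 20 and 34 counts at 6 h, 3, 9 and 9 at 24 h, and 0, 5 and 0 at 72 h. Its ratio to the starved group was 0.0666 at 6 h, 0.0222 at 24 h and 0.00579 at 72 h, with counting intervals of 0.0509 to 0.0858, 0.0137 to 0.0342 and 0.00187 to 0.0136. At 6 h the 64 counts of MpPTB4 still stood against 1 count in the control. MpPTB8 was at 32.6, 40.7 and 50.5 CPM at 6 h, 23.7, 36.5 and 30.4 at 24 h, and 23.9, 16.2 and 22 at 72 h. Its difference from the starved group was -2.24 ± 0.27, -2.67 ± 0.28 and -3.19 ± 0.29 on the log2 scale. The 24 and 72 h libraries of MpPTB8 overlapped with the control libraries, the latter at 20.7 ± 4 against 21.7 ± 2.96 CPM, while all 6 h libraries were above all control libraries. These values share libraries with the choice of the genes and carry no test.

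Both transporter genes were higher 6 h after sucrose was returned, in plants that had not been short of phosphate by their labels. Return was a move to full medium, and no starved plants were moved to fresh medium without the nutrient. The nutrient and the transfer therefore cannot be told apart, here or for nitrate and phosphate. MpPTB4 was at 0, 0 and 0.0953 CPM in sucrose-starved plants and at 1.61, 1.81 and 2.18 CPM at 6 h, which are 2 counts against 126, with both of the former in replicate 3. The ratio was 63.8 (counting interval 17.3 to 533), and edgeR's quasi-likelihood test gave an adjusted p of 3.83e-05. MpPTB8 went from 28.3, 20 and 32.7 CPM to 102, 86.3 and 103 CPM, a rise of 1.74 ± 0.27 on the log2 scale (adjusted p = 1.95e-06 by the same test). All 6 h libraries of both genes lay above all starved ones. Replicate 2 of the 6 h group had the lowest correlation with its group in the time course (mean r = 0.9791), and without it the change of MpPTB8 was 1.82 and both calls stood (adjusted p = 9.1e-05 for MpPTB4 and 4.03e-06 for MpPTB8). In this comparison 30.9% of 13504 tested genes were called higher, so a call by itself is common there. Marker sums moved in the same libraries: the 3 oil body cell markers MpERF13, MpC1HDZ and MpMYB02 summed to 57.9 to 66.9 CPM in sucrose-starved plants and to 115 to 169 CPM at 6 h, and the gemma cup markers MpGCAM1 and MpKAR to 14.5 to 21.6 and 31.9 to 41.5 CPM. The rhizoid marker MpRSL1 was at 9.87 to 12.5 and 14.2 to 16.1 CPM. Of the sexual organ markers MpDAZ1 went the other way, from 15.2 to 17.7 CPM down to 7.84 to 9.99 CPM, and MpBNB was at 0 in both groups. MpDUO1, also a sexual organ marker, overlapped between the groups, at 0.746 to 1.14 and 0.371 to 0.923 CPM. No oil body or gemma cup marker was at 0 in any library of the time course, and the part of these markers in the result was not tested.

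The rise after sucrose return did not last. At 24 h MpPTB4 held 2, 7 and 4 counts and MpPTB8 was at 30.9, 21.8 and 25.9 CPM, and at 72 h MpPTB4 held 3, 4 and 0 counts and MpPTB8 was at 18.7, 14.9 and 20 CPM. For both genes the 24 h libraries overlapped with the sucrose-starved libraries. Neither gene was called against the sucrose-starved group at 24 h (edgeR adjusted p = 0.233 for MpPTB4 and 0.842 for MpPTB8), where 54.4% of genes were called in either direction, or at 72 h (0.529 and 0.0852), where 39.6% were. MpPTB8 at 72 h differed from the starved group by -0.62 ± 0.29 on the log2 scale, and the 2 groups of libraries touched at 20 CPM without overlap. That comparison passed the threshold without replicate 2 of the starved group (adjusted p = 0.0465).

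Return of nitrate gave smaller and less even values at 6 h. MpPTB4 held 6, 3 and 55 counts there against 2, 0 and 3 in nitrate-starved plants, with most of the counts in replicate 3. The gene was called higher (3.72 ± 0.99, adjusted p = 0.0028 by edgeR's quasi-likelihood test), but without replicate 3 the log2 fold change was 1.61 and the adjusted p was 0.293. MpPTB8 was at 55.9, 47.5 and 62.7 CPM at 6 h against 50.6, 25.8 and 22.7 CPM, and the 2 groups overlapped. It was called higher by 0.70 ± 0.27 (adjusted p = 0.0331). It lost the call without replicate 1 or 3 of the 6 h group or replicate 2 or 3 of the starved group, with log2 fold changes of 0.49 to 1.20 over the 6 fits that each left out 1 library, and when the fit held only those 2 groups (0.70, adjusted p = 0.0825). At 6 h 21.4% of genes were called higher. The oil body cell markers summed to 76.8 to 85.9 CPM in nitrate-starved plants and to 87.1 to 99.5 CPM at 6 h, with MpC1HDZ at 63.7 to 70.5 and 72.7 to 84.2 CPM but MpMYB02 at 8.39 to 9.91 and 7.57 to 8.78 CPM. MpRSL1 was at 11.2 to 13.2 and 14.8 to 17.3 CPM, MpDAZ1 at 16.9 to 20 and 8.99 to 11.9 CPM, and MpBNB at 0 in both groups. MpDUO1, also a sexual organ marker, went the opposite way to MpDAZ1, at 0.267 to 0.617 and 0.826 to 1.04 CPM. The gemma cup markers overlapped between the groups. MpGCAM1 was at 1.44 to 3.23 and 1.32 to 2.2 CPM and MpKAR at 18 to 22.4 and 21.2 to 24.5 CPM. The part of these markers in the result was not tested. At 24 h neither gene was called (adjusted p = 0.728 for MpPTB4 and 0.347 for MpPTB8), with 29.9% of genes called in either direction. At 72 h neither was called either (0.87 and 0.0816), with a background of 32.5%, and MpPTB8 differed from the starved group by -0.62 ± 0.28 on the log2 scale, a value that ran from -0.837 to -0.125 as single libraries were left out and passed the threshold without replicate 3 of the starved group (adjusted p = 0.0309).

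Each level of the time course can be placed in order. For MpPTB4 the phosphate-starved group was the highest, followed by 6 h of sucrose return, and the libraries of neither group overlapped with the next. Below them, from 6 h of phosphate return at 0.774 ± 0.423 CPM down to the control at 0.0105 ± 0.0182 CPM, each group overlapped with its neighbour. For MpPTB8 the same 2 groups led the order, at 197 ± 88.4 and 97.2 ± 9.51 CPM, again with no overlap with the next group. Then came 6 h of nitrate return at 55.4 ± 7.64 CPM and 6 h of phosphate return at 41.2 ± 8.92 CPM, and from there down to 72 h of sucrose return at 17.9 ± 2.62 CPM each group overlapped with its neighbour.

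In the mutants, whose libraries did not enter the choice of the genes, both transporter genes were higher under phosphate starvation in all 3 lines. MpPTB4 held 2, 0 and 0 counts in control Mpcsd-2 and 1913, 1750 and 1515 in phosphate-starved Mpcsd-2 (81.2, 61.5 and 67.6 CPM). Over the summed counts and totals the starved level was 2410 times the control level, and counting error alone allows 666 to 19900. Mperf20-21 went from 2, 0 and 0 counts to 472, 471 and 372 (23.7, 25.2 and 18.7 CPM), 885 times the control level (244 to 7310). Mphd9-14 went from 0 counts in all 3 control libraries to 361, 398 and 290 (18.2, 19.4 and 17.2 CPM), which was at least 395-fold higher against a floor of 3 counts over the control group. Every starved library was far above every control library in each line. The control counts of Mpcsd-2 and Mperf20-21 all came from replicate 1, without which those groups are at 0. MpPTB4 passed the filter on low counts only through these phosphate-starved groups, so no test of it against the controls is given.

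MpPTB8 rose in the same libraries from a level that was already well measured. It went from 18, 19 and 27.5 CPM to 312, 253 and 256 CPM in Mpcsd-2, a rise of 3.67 ± 0.16 (adjusted p = 2.15e-16 by edgeR). In Mperf20-21 it went from 33.3, 30.2 and 28.9 CPM to 250, 236 and 173 CPM, a rise of 2.81 ± 0.16 (adjusted p = 6.8e-14). In Mphd9-14 it went from 33.5, 32.2 and 30.8 CPM to 223, 241 and 206 CPM, a rise of 2.80 ± 0.16 (adjusted p = 1.45e-13). The groups did not overlap in any line. The genes called higher in these contrasts were 6.4% of 13162 tested genes in Mpcsd-2, 3.81% in Mperf20-21 and 1.99% in Mphd9-14, and MpPTB8 was among them in each.

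**Figure D2:**
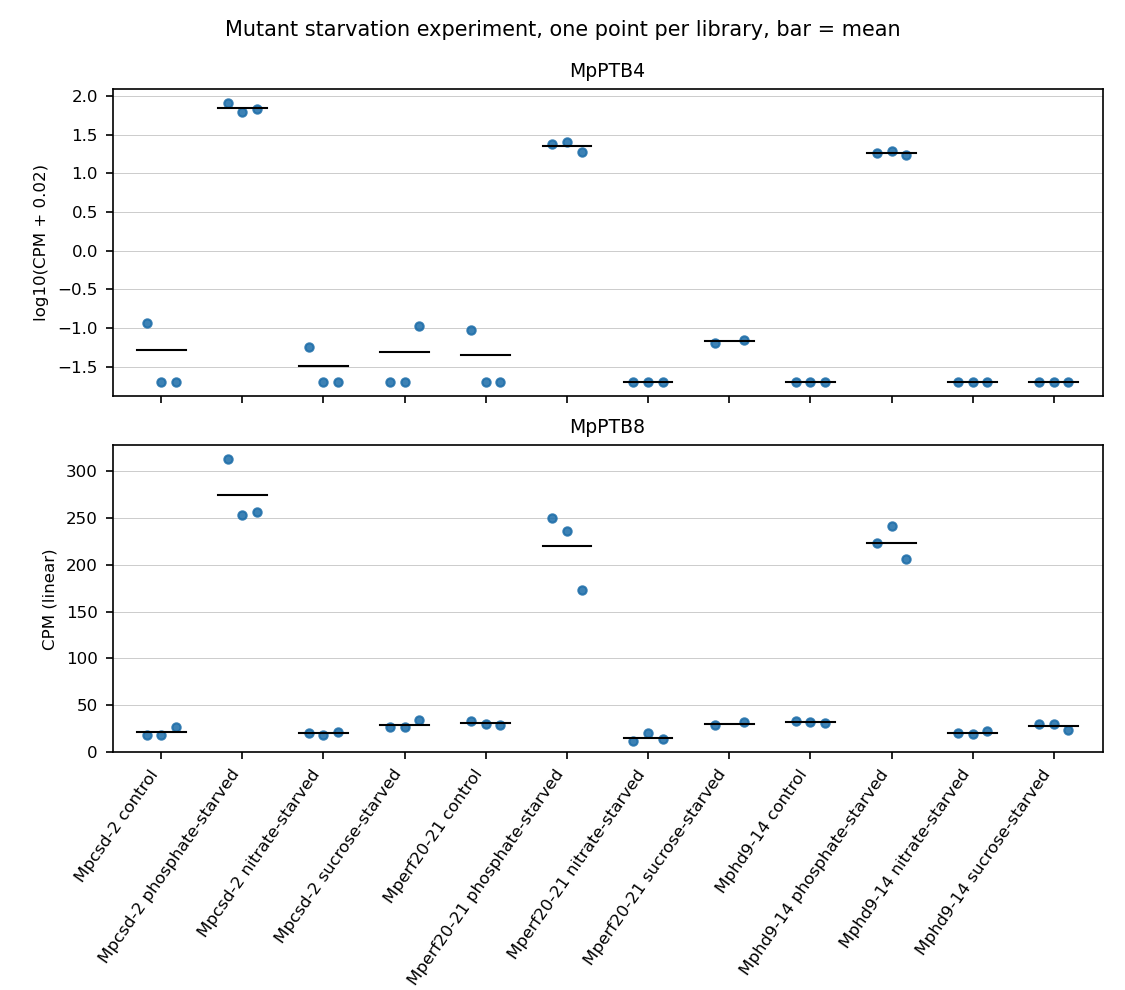
Levels of MpPTB4 (upper panel, log10 of CPM plus 0.02) and MpPTB8 (lower panel, CPM on a linear axis) in each mutant in full medium and after starvation of phosphate, nitrate or sucrose, with a point per library and a bar at the group mean. In each line the phosphate-starved libraries stand above all others, at 17.2 CPM or more for MpPTB4 and 173 CPM or more for MpPTB8.

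In each line the levels of both genes were higher under phosphate starvation than under nitrate or sucrose starvation, a comparison tested for MpPTB8 alone. Of MpPTB4, nitrate-starved mutants held 1 count in all in Mpcsd-2 and 0 in Mperf20-21 and Mphd9-14, and sucrose-starved mutants held 2 counts in Mpcsd-2, 2 in Mperf20-21 (n = 2) and 0 in Mphd9-14. The phosphate-starved level of MpPTB4 in Mpcsd-2 was 5010 times the nitrate-starved level (counting interval 899 to 198000) and 2330 times the sucrose-starved level (644 to 19200). In Mperf20-21 it was at least 511-fold higher than the nitrate-starved level and 469 times the sucrose-starved level (130 to 3880). In Mphd9-14 it was at least 384-fold and at least 382-fold higher, with the bounds taken against the floor of 3 counts over the group. MpPTB8 was higher under phosphate than under nitrate starvation by 3.73 ± 0.16 in Mpcsd-2, 3.79 ± 0.17 in Mperf20-21 and 3.40 ± 0.16 in Mphd9-14. It was higher under phosphate than under sucrose starvation by 3.07 ± 0.16, 2.76 ± 0.19 and 2.89 ± 0.16 in the same order. All 6 of these contrasts of MpPTB8 were called, with edgeR adjusted p-values of 9.64e-12 or lower. The genes called higher against nitrate starvation were 3.43%, 1.28% and 0.76% of 13162 in Mpcsd-2, Mperf20-21 and Mphd9-14, and against sucrose starvation 15%, 12.3% and 13.1%.

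Against the control of the same line, MpPTB8 was called lower in nitrate-starved Mperf20-21 and higher in sucrose-starved Mpcsd-2, and was not called in the other 4 contrasts. Under nitrate starvation it fell by 0.97 ± 0.16 on the log2 scale in Mperf20-21 (edgeR adjusted p = 0.000361), from 33.3, 30.2 and 28.9 CPM to 12.1, 20.9 and 14.4 CPM with no overlap. In Mphd9-14 it was at 20.5, 19.8 and 22.6 CPM, also below all control libraries, with a log2 difference of -0.60 ± 0.16 and an adjusted p of 0.0536 that did not pass the threshold, although DESeq2 gave 0.0184. In Mpcsd-2 the nitrate-starved libraries, at 20.4, 18.8 and 21.5 CPM, overlapped with the control (-0.06 ± 0.16, adjusted p = 0.956). The background of calls in either direction was 1.85% in Mpcsd-2, 3.25% in Mperf20-21 and 1.22% in Mphd9-14. Under sucrose starvation MpPTB8 was called in Mpcsd-2, at 27.5, 27.2 and 34.1 CPM with a log2 change of 0.60 ± 0.16 (adjusted p = 0.00558), although the groups overlapped and the call was lost when the fit held only those 2 groups (0.58, adjusted p = 0.138). It was not called in Mperf20-21 (0.05 ± 0.17, adjusted p = 0.881, n = 2) or Mphd9-14 (-0.09 ± 0.16, adjusted p = 0.735). Sucrose starvation called 26.2% of genes in Mpcsd-2, 15.3% in Mperf20-21 and 22.4% in Mphd9-14.

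Phosphate-starved Mpcsd-2 held more MpPTB4 RNA than the other phosphate-starved mutants. This comparison of starved levels was added after the counts were seen, because control counts of 0 to 2 leave the difference of fold changes undefined for MpPTB4. The level was 70.1 ± 10.1 CPM in Mpcsd-2 against 22.5 ± 3.37 CPM in Mperf20-21 and 18.3 ± 1.12 CPM in Mphd9-14. The difference of Mpcsd-2 from Mperf20-21 was 1.78 ± 0.18 on the log2 scale (edgeR adjusted p = 1.84e-07), and from Mphd9-14 it was 2.03 ± 0.18 (adjusted p = 5.7e-08). All Mpcsd-2 libraries lay above all libraries of the other lines. Mperf20-21 and Mphd9-14 overlapped, with a log2 difference of 0.25 ± 0.18 (adjusted p = 0.882). Between phosphate-starved mutants 27.7% of 13162 genes were called in either direction for Mpcsd-2 against Mperf20-21, 22.7% for Mpcsd-2 against Mphd9-14 and 1.03% for Mperf20-21 against Mphd9-14.

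MpPTB8 differed less between the same libraries. Its level in Mpcsd-2, 274 ± 33.3 CPM, was above that in Mperf20-21, 220 ± 41.2 CPM, by 0.46 ± 0.14 on the log2 scale (edgeR adjusted p = 0.0176), a call that was lost without replicate 1 of Mpcsd-2 (0.36, adjusted p = 0.107) or replicate 3 of Mperf20-21 (0.32, adjusted p = 0.127). Its difference from Mphd9-14, at 223 ± 17.5 CPM, was 0.39 ± 0.14 and did not pass the threshold (adjusted p = 0.0525; 0.0473 with DESeq2). All Mpcsd-2 libraries of MpPTB8, at 253 CPM or more, lay above all libraries of the other 2 lines, at 250 CPM or less. Mperf20-21 and Mphd9-14 differed by -0.07 ± 0.14 (adjusted p = 0.999). For MpPTB8 the difference of fold changes could also be tested. The response of Mpcsd-2 to phosphate starvation exceeded that of Mperf20-21 by 0.86 ± 0.21 and that of Mphd9-14 by 0.87 ± 0.21, and neither passed the threshold over all genes (adjusted p = 0.163 and 0.0903). Both passed with DESeq2 (0.0329 and 0.0213) and without replicate 3 of the Mpcsd-2 control, the highest of that group (0.0285 and 0.0225). The responses of Mperf20-21 and Mphd9-14 differed by 0.01 ± 0.21 (adjusted p = 1). Few genes passed in these contrasts, 0.0912%, 0.319% and 0.0076% of those tested.

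The number of MpPTB4 counts per 100 MpPTB8 counts in a library does not depend on its scaling, and it separated the mutant lines. It was also computed after the counts were seen and is given without a test. In phosphate-starved Mpcsd-2 there were 24.3 to 26.4 MpPTB4 counts per 100 MpPTB8 counts. In Mperf20-21 there were 9.47 to 10.8 and in Mphd9-14 8.04 to 8.33, with no overlap among the 3 lines. Phosphate-starved Tak-1 plants had 4.84 to 7.56 in the time course, a separate experiment. Marker sums in phosphate-starved plants also differed between lines: the 3 oil body cell markers summed to 29.3 to 43.9 CPM in Mpcsd-2, 60.2 to 70.2 in Mperf20-21 and 49 to 60.7 in Mphd9-14, and the rhizoid marker MpRSL1, the only 1 of 2 rhizoid markers on the list that was found among the names, was at 14.5 to 18.4, 11.9 to 14.5 and 11.9 to 14.1 CPM. None of these markers was at 0 in any mutant library. MpDAZ1 was at 8.57 to 9.13, 9.56 to 11.8 and 10.3 to 12 CPM in the same order, and MpBNB was at 0. MpDUO1 was at 0.246 to 0.625, 0.267 to 0.855 and 0.706 to 1.01 CPM. Of the gemma cup markers, MpGCAM1 was at 0.58 to 0.722, 0.748 to 1.71 and 1.01 to 1.95 CPM. MpKAR was at 15.5 to 17.9, 17.6 to 22 and 18 to 18.4 CPM. The oil body sums of the same lines in full medium were 37.4 to 45, 60.4 to 69.9 and 49.6 to 64.4 CPM, where MpPTB4 was at 2 counts or fewer. The part of these markers in the difference was not tested.

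**Figure D3:**
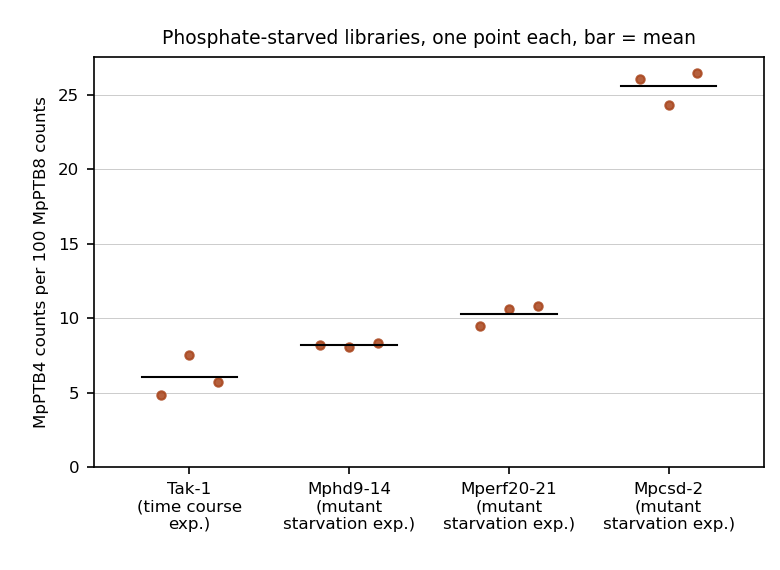
Counts of MpPTB4 per 100 counts of MpPTB8 in each phosphate-starved library, with a bar at the group mean, for Tak-1 (time course) and the 3 mutants (mutant starvation experiment). The Mpcsd-2 libraries lie between 24.3 and 26.4, and all other libraries lie at 10.8 or below.

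In full medium, all 3 mutants had more MpPTB8 RNA than Tak-1 grown in the same experiment. Tak-1 was at 76.6, 77.1 and 71.2 CPM, Mpcsd-2 at 140, 141 and 148, Mperf20-21 at 134, 126 and 136, and Mphd9-14 at 139, 135 and 140. No mutant library overlapped with Tak-1. MpPTB8 was higher by 1.02 ± 0.06 in Mpcsd-2, 0.82 ± 0.06 in Mperf20-21 and 0.94 ± 0.06 in Mphd9-14 on the log2 scale, with edgeR adjusted p-values of 3.49e-11, 1.89e-09 and 2.37e-10. Of 12565 tested genes 28.3%, 21% and 21.7% were called higher in these contrasts. MpPTB4 was low and uneven there, at 7, 27 and 2 counts in Tak-1, 3, 7 and 8 in Mpcsd-2, 9, 23 and 12 in Mperf20-21 and 6, 23 and 3 in Mphd9-14. It was not called in any mutant (adjusted p = 0.298, 0.995 and 0.753), and all groups overlapped. The 3 oil body cell markers summed to 82.5 to 87.3 CPM in Tak-1, 23.9 to 28.6 in Mpcsd-2, 75.8 to 79.5 in Mperf20-21 and 58.8 to 72.4 in Mphd9-14. The 2 gemma cup markers went opposite ways: MpGCAM1 was at 1.02 to 1.88 CPM in Tak-1 and at 2.75 to 3.66, 2.23 to 3.34 and 4.1 to 6.53 CPM in Mpcsd-2, Mperf20-21 and Mphd9-14, while MpKAR was at 27.6 to 30.3 CPM in Tak-1 and at 13.6 to 19.7 CPM over the mutants. MpDAZ1 was at 5.9 to 8.7 CPM in Tak-1 and at 4.07 to 4.62 CPM in Mpcsd-2, and MpBNB was at 0. MpDUO1 overlapped between these 2 groups, at 0.198 to 0.59 CPM in Tak-1 and 0.188 to 0.457 CPM in Mpcsd-2. The part of these markers in the result was not tested.

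The levels of both genes in full medium stood apart by experiment. For MpPTB8, Tak-1 was at 21.7 ± 2.96 CPM in the time course and at 75 ± 3.28 CPM in the full-medium experiment. The mutants were at 21.5 ± 5.21 CPM (Mpcsd-2), 30.8 ± 2.29 CPM (Mperf20-21) and 32.2 ± 1.34 CPM (Mphd9-14) in the starvation experiment and at 143 ± 4.46, 132 ± 5.78 and 138 ± 2.77 CPM in the full-medium experiment. MpPTB4 followed, with 1 count in the time course control against 36 in Tak-1 of the full-medium experiment, and 0 to 2 counts per group in the mutant controls against 18 to 44. The labels give the same tissue and medium for these control groups. Experiment and table cannot be told apart here, and no test was made across them. The contrast of mutants with Tak-1 was within the full-medium experiment, which holds no starved plants.

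**Figure D4:**
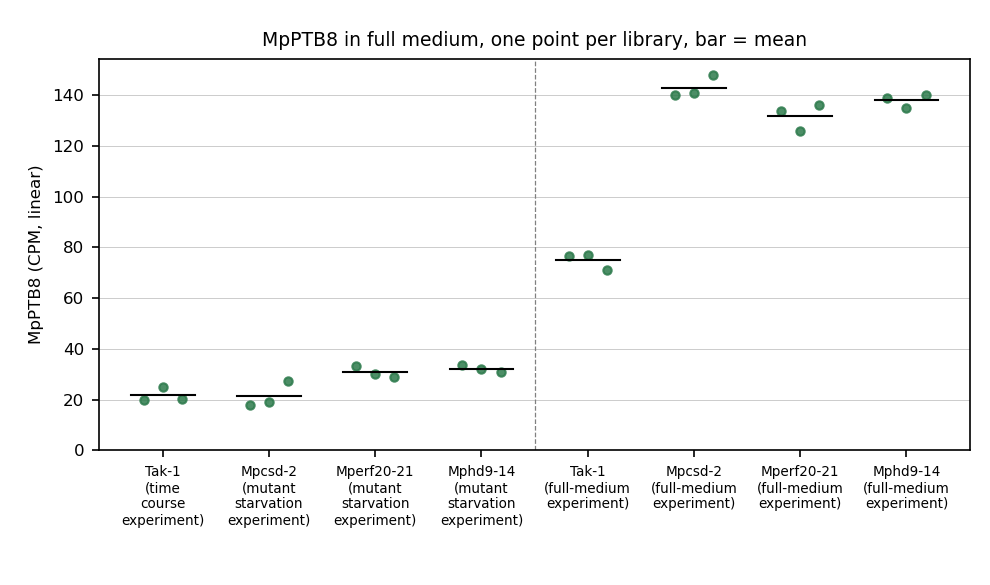
MpPTB8 (CPM, linear axis) in full medium in each genotype, with a point per library and a bar at the group mean; left of the dashed line are the controls of the starvation experiments, right of it the full-medium experiment. Libraries on the left lie between 18 and 33.5 CPM, and those on the right between 71.2 and 148 CPM.

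MpPTB4 lies at the end of a row of 6 neighbouring PTB genes in the table of names (assembly MpTak2_v7.1), in the order MpPTB4, MpPTB6, MpPTB2, MpPTB3, MpPTB1 and MpPTB5, while MpPTB8 lies elsewhere on the same chromosome. In the mutant starvation experiment the other 5 genes of the row summed to 5 counts or fewer per group outside phosphate starvation. MpPTB6 (Mp4g16570) had 0 counts in all 86 libraries. In phosphate-starved Mpcsd-2, MpPTB2 (Mp4g16580) held 112, 76 and 48 counts, MpPTB3 (Mp4g16590) 123, 214 and 81, MpPTB1 (Mp4g16600) 6, 44 and 2, and MpPTB5 (Mp4g16610) 68, 77 and 19. The 5 genes together held 870 counts there against 3 in the Mpcsd-2 control, 270 times the control level (counting interval 91.9 to 1310). In Mperf20-21 they held 109 against 0 and in Mphd9-14 265 against 0, at least 48.9-fold and 99.7-fold higher with 3 counts over the group as the floor. These genes too passed the filter only through phosphate-starved groups, so no test of them against the controls is given. Like MpPTB4, MpPTB2 and MpPTB3 were higher in phosphate-starved Mpcsd-2 than in phosphate-starved Mperf20-21, by 2.38 ± 0.44 (edgeR adjusted p = 0.00148) and 3.29 ± 0.49 (2.96e-05), and than in phosphate-starved Mphd9-14, by 1.74 ± 0.42 (0.00998) and 1.65 ± 0.44 (0.00817). The other detected genes of the row separated the lines less. MpPTB1 was at 0.0893 to 1.55 CPM in phosphate-starved Mpcsd-2 and overlapped with Mperf20-21 (0.107 to 0.502) and Mphd9-14 (0.202 to 1.17). MpPTB5, at 0.848 to 2.89 CPM in Mpcsd-2, lay above Mperf20-21 (0.101 to 0.702) but overlapped with Mphd9-14 (0.757 to 1.71). In phosphate-starved Tak-1, where no test was made, the 5 genes of the row held 85 counts, 71 of them in replicate 2. The control held 0 counts of these genes, a difference of at least 28.4-fold that rests mostly on 1 library. These are related genes side by side, and the sources used here do not say how reads shared by near-identical copies were assigned, so the split of counts among them, including the 0 counts of MpPTB6, is uncertain.

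MpPTB3 also gave counts outside phosphate starvation. After 6 h of sucrose return it held 62, 39 and 69 counts against 0 in all sucrose-starved libraries, at least 57.4-fold higher against the same floor, and no test is given because it passed the filter through that group, while MpPTB2 held 4 counts over the 3 libraries and MpPTB1 and MpPTB5 held 0. Lower counts of MpPTB3 were found at 24 h of sucrose return (11, 5 and 6), at 6 h of nitrate return (4, 7 and 7) and at 6 h of phosphate return (0, 1 and 20, of which replicate 3 held all but 1). In the full-medium experiment MpPTB3 was at 4.24 ± 0.839 CPM in Mpcsd-2 against 0.741 ± 0.23 CPM in Tak-1, higher by 2.58 ± 0.33 on the log2 scale (edgeR adjusted p = 2.63e-06), and it was not called in Mperf20-21 (adjusted p = 0.142) or Mphd9-14 (0.08). MpPTB7 (Mp8g10380), on another chromosome, did not follow MpPTB4 in phosphate-starved Tak-1, and its higher mean levels in the phosphate-starved mutants were not called. It was at 1.26 ± 0.929 CPM in phosphate-starved Tak-1 against 1.94 ± 0.527 CPM in the control. In the phosphate-starved mutants the mean log2 fold change of MpPTB7 over the lines was 0.927, and it was not called in any (edgeR adjusted p = 0.0681, 0.536 and 0.363). Its starved libraries lay above all control libraries in Mperf20-21 and Mphd9-14 and overlapped with them in Mpcsd-2. Its highest level was 12.4 ± 1.15 CPM at 24 h of sucrose return, 3.62 ± 0.55 above the sucrose-starved group (adjusted p = 2.11e-06).

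**Figure D5:**
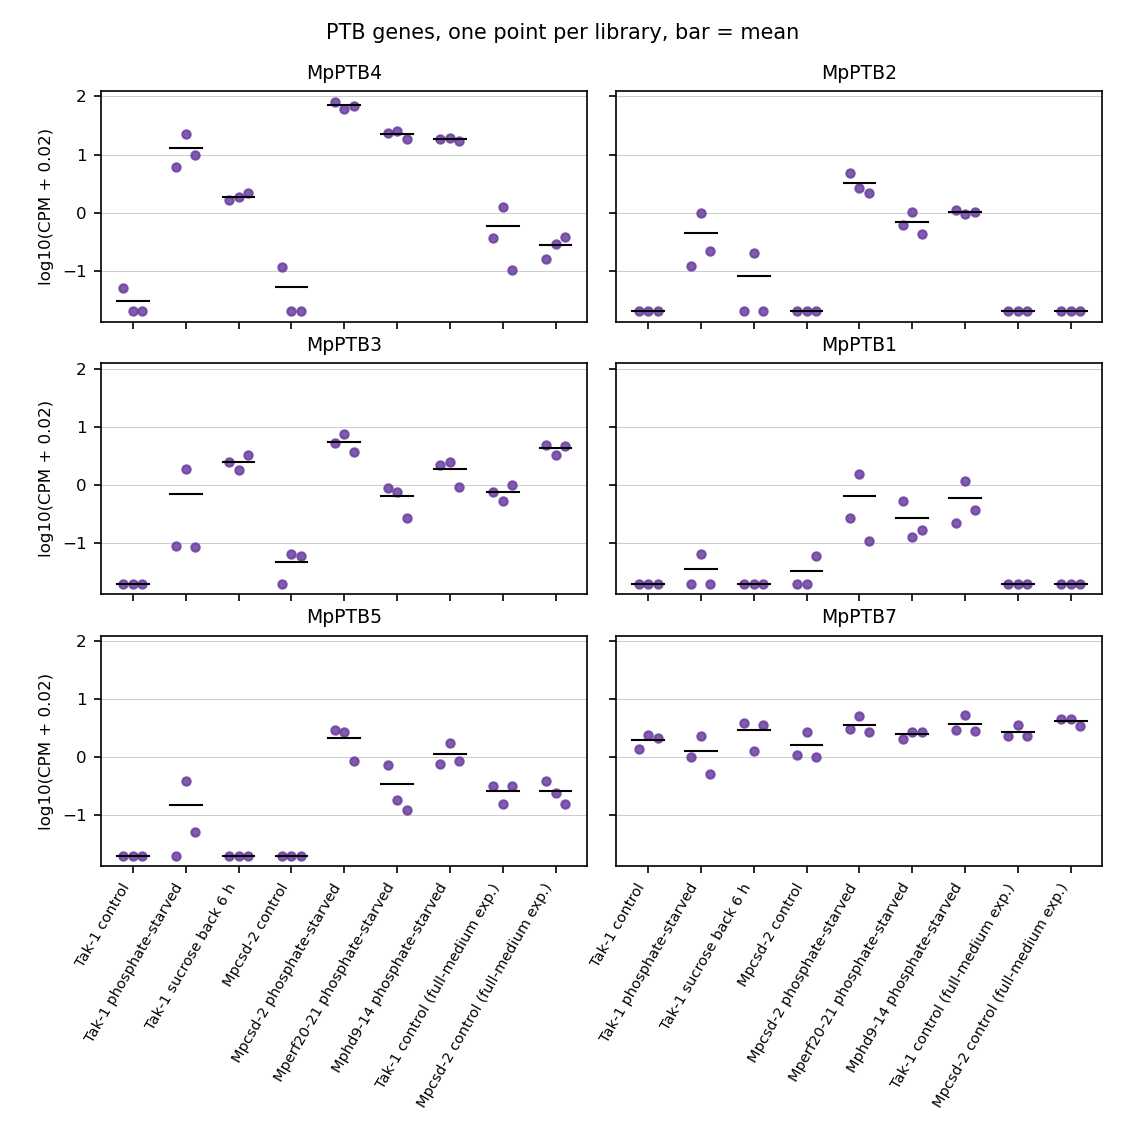
Levels of MpPTB4, 4 of its neighbours and MpPTB7 (log10 of CPM plus 0.02) in selected groups of the 3 experiments, with a point per library and a bar at the group mean; points at the bottom are libraries with 0 counts. MpPTB2 and MpPTB1 are at or near 0 outside phosphate-starved plants, MpPTB3 is also present 6 h after sucrose return and in the full-medium experiment, and MpPTB7 is detected in every group drawn.

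Outside the PTB family, the phosphate genes on the list moved by less than MpPTB8 in each phosphate-starved mutant. The list held 22 names, of which 20 were tested in the mutant experiment. Without MpPTB4, MpPTB8 and the 4 tested genes beside MpPTB4, which passed the filter only through phosphate-starved groups, 14 remained. MpPTB7, a PTB gene outside the row, was kept among the 14. Of these 14, 4 rose and 1 fell in phosphate-starved Mpcsd-2, 2 rose and 2 fell in Mperf20-21, and 1 rose and 1 fell in Mphd9-14. Over all tested genes the shares called higher were 6.4%, 3.81% and 1.99%, and those called lower were 1.4%, 0.767% and 0.312%. The genes that rose were MpGDPD in every line, MpVPT in Mpcsd-2 and Mperf20-21, and MpSPX and MpPAH in Mpcsd-2. Those that fell were MpLPR7 in every line and MpLPR11 in Mperf20-21. The median log2 fold change over the 14 was 0.16, 0.06 and -0.03, against -0.0096, -0.0023 and -0.0023 over all tested genes. Of the 14, 2 genes were called in all 3 lines. MpGDPD (Mp4g01320), of the glycerophosphodiester phosphodiesterases, which break down the glycerophosphodiesters left from phospholipids, rose by 1.10 ± 0.17, 0.62 ± 0.17 and 0.74 ± 0.17 in Mpcsd-2, Mperf20-21 and Mphd9-14 (edgeR adjusted p = 2.88e-05, 0.0261 and 0.0111). MpLPR7 (Mp8g04700), related to the LPR multicopper oxidases of the root response to low phosphate in Arabidopsis, fell by 1.48 ± 0.14, 1.46 ± 0.14 and 1.53 ± 0.14 (adjusted p = 2.88e-09, 1.35e-08 and 6.48e-09). MpSPX (Mp1g27550) rose in Mpcsd-2 by 0.61 ± 0.09 (adjusted p = 1.15e-05) and was at 0.05 ± 0.09 and 0.11 ± 0.09 in Mperf20-21 and Mphd9-14 (0.884 and 0.833). At 6 h of sucrose return, where the transporters rose, MpGDPD fell by 4.03 ± 0.30 (adjusted p = 9.04e-13) and MpLPR7 rose by 1.66 ± 0.19 (3.41e-09), both opposite to their changes under phosphate starvation in the mutants. In the time course, also without the transporters and the PTB row, 14 listed genes were tested, again with MpPTB7 among them. Of these, 5 rose and 6 fell at 6 h of sucrose return, against shares of 30.9% (higher) and 30.6% (lower) over all tested genes, and 2 rose and 5 fell at 6 h of nitrate return, against 21.4% and 20.9%. In the full-medium experiment, of 14 listed genes counted in the same way, 4 rose and 6 fell in Mpcsd-2 (28.3% and 28.5% of all tested genes), 3 rose and 5 fell in Mperf20-21 (21% and 20.4%), and 4 rose and 6 fell in Mphd9-14 (21.7% and 22%). Under nitrate starvation of the mutants 1 of the 14 rose, in Mpcsd-2 (1.68% of all tested genes higher), and none was called in Mperf20-21 (2.45% higher and 0.805% lower) or Mphd9-14 (1.07% and 0.144%). Under sucrose starvation 4 rose and 3 fell in Mpcsd-2 (15.3% and 10.9%), 1 rose and 4 fell in Mperf20-21 (8.38% and 6.96%), and 3 rose and 4 fell in Mphd9-14 (12.4% and 9.99%).

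The genes whose levels ran most like those of the transporters over the 13 Tak-1 groups were ranked by Pearson r of mean log2 CPM among 9813 genes at 10 CPM or more in their highest group. The points are group means of the libraries that chose the genes, they share libraries and depth between genes, and r is a description. MpPTB8 was among the 3 closest genes to MpPTB4 (r = 0.949), between Mp4g19900 (0.969) and Mp8g12880 (0.914), and MpPTB4 was the closest to MpPTB8, before Mp4g19900 (0.944) and Mp2g11360 (0.932). Over single libraries the first 3 for MpPTB4 were the same genes, and MpPTB4 was at rank 6 for MpPTB8. In the 12 mutant groups, which the ranking did not use, MpPTB4 and MpPTB8 had r = 0.976, and Mp4g19900 had 0.988 with MpPTB4 and 0.952 with MpPTB8. Outside phosphate starvation these groups held 2 counts of MpPTB4 or fewer. Its r there therefore mostly sets the phosphate-starved groups against the rest. Mp4g19900 was at 283 CPM in phosphate-starved Mpcsd-2, 193 in Mperf20-21 and 157 in Mphd9-14, against 1.37, 1.64 and 2.37 CPM in their controls. In the full-medium experiment it was at 6.25 ± 0.523 CPM in Tak-1, 55.1 ± 3.05 CPM in Mpcsd-2, 10.2 ± 2.14 CPM in Mperf20-21 and 9.66 ± 1.42 CPM in Mphd9-14. MpPTB4 did not follow it there, at 0.56 ± 0.611 CPM in Tak-1 and 0.255 ± 0.115 CPM in Mpcsd-2, with overlap. The table of names gives no symbol for Mp4g19900, Mp8g12880 or Mp2g11360.

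The gene next to MpPTB8 in the table of names, Mp4g19710, was also higher in phosphate-starved plants. It ranked 4 among the genes most like MpPTB8 in the time course (r = 0.921) and had r = 0.985 with MpPTB8 over the mutant groups. The latter r mostly sets the phosphate-starved groups against the rest. Under phosphate starvation Mp4g19710 rose by 5.66 ± 0.25, 3.70 ± 0.22 and 3.14 ± 0.22 in Mpcsd-2, Mperf20-21 and Mphd9-14 (edgeR adjusted p = 2.15e-16, 3.82e-13 and 1.84e-11). Its response in Mpcsd-2 exceeded that in Mperf20-21 by 1.96 ± 0.33 (adjusted p = 0.00423) and that in Mphd9-14 by 2.52 ± 0.33 (0.000353). It was also higher than Tak-1 in the full-medium experiment in all 3 mutants, by 0.80 ± 0.12, 1.75 ± 0.11 and 1.48 ± 0.12 (adjusted p = 1.49e-05, 1.12e-09 and 9.89e-09). Among these mutants Mp4g19710 was lowest in Mpcsd-2 and highest in Mperf20-21, at 14.6 ± 1.45 and 29.6 ± 1.38 CPM. For MpPTB8 that order was reversed, at 143 ± 4.46 and 132 ± 5.78 CPM. Mp4g19710 thus did not follow MpPTB8 across the mutants there. It was named for its place beside MpPTB8, and the libraries were directional but the sources used here do not say whether counting used the strand, so overlap of reads between the 2 genes cannot be judged. The neighbour on the other side, Mp4g19690, had 0 counts in 84 of 86 libraries. Beside the PTB row, Mp4g16510 was at 3.51 to 11.4 CPM in all libraries and was not called in any phosphate-starved mutant (adjusted p = 0.755, 0.748 and 0.988), and Mp4g16620 was at 0 in 81 of 86 libraries.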

How the data were processed

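RNA sequencing of whole Marchantia polymorpha gemmalings was read from 3 tables of raw counts per gene, 1 per experiment, as deposited by the authors. Reads were aligned with STAR 2.7, and DESeq2 is also named, per the submitters' processing notes. The genome build, annotation, counting program and strand setting are not given in the sources used here. The 86 libraries, from polyA-selected directional preparations per the labels' protocols, were grouped by their labels into 29 groups, and no pair of them held identical values. The labels do not say whether replicates were separate cultures, so p-values reflect how far these libraries differ, and that spread may be technical. The count table of Klebsormidium nitens was not used here.

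Tests were edgeR 4.0.16 quasi-likelihood F-tests in R 4.3.3 on each whole table, with TMM scaling, the filterByExpr filter on low counts, group as the only term and Benjamini-Hochberg adjustment over all tested genes, two-sided. A gene was called at an adjusted p under 0.05. MpPTB4 counts of 3 or fewer in a group are given as ratios of counts per total with 95% exact binomial intervals, which cover counting error only, or against a floor of 3 counts over the group. The scripts were tested on simulated data. Alternatives were RLE scaling, no filter, DESeq2 1.42.0, a replicate block, fits of only the groups compared, and leaving out each library.

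MpPTB4 and MpPTB8, the gene lists and the tests were chosen with earlier results of these data known. Named genes were both transporters, the other PTB genes, the 3 genes most like each transporter, up to 6 listed phosphate genes called in all mutants in the same direction, and the mutated genes. MpSPX, the genes named only as rising or falling, MpPTB3 and MpPTB7 outside phosphate starvation, and the neighbouring genes were picked after their values or positions were seen. Gene symbols came from a RefSeq gene table (assembly MpTak2_v7.1), matched by the number in the identifier, where 17384 of 19355 identifiers had a row and 3091 a symbol. Coordinates served only to order genes, and neighbours are the nearest genes with an identifier in both the names and the counts. Sequences and transcript lengths were not used here.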

Additional observations from a re-analysis of the deposited data

Results flagged for a closer look

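The phosphate-starved level differed between mutant lines by a test of the difference itself, for 3 of the values above. MpPTB4 was higher in Mpcsd-2 than in Mperf20-21 by 1.78 ± 0.18 and than in Mphd9-14 by 2.03 ± 0.18 on the log2 scale, with all 3 Mpcsd-2 libraries above all others. MpPTB8 was higher in Mpcsd-2 than in Mperf20-21 by 0.458 ± 0.14, a call that 2 of the 6 fits leaving out a library did not keep. These comparisons were added after the counts were seen. Of 13162 tested genes, 27.7% were called in either direction against Mperf20-21 and 22.7% against Mphd9-14, so a call is common there. The difference of responses of MpPTB8 did not pass the threshold against Mperf20-21 or Mphd9-14 (edgeR adjusted p = 0.163 and 0.0903).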

How the results depend on the processing

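Of 701 alternative fits of 63 values for MpPTB4 and MpPTB8, 678 kept the direction of called values and the side of the threshold or stayed within the replicate spread, and none reversed a called value, a count that includes contrasts of MpPTB4 whose call its filter fixed. Restricting the fit to the groups compared moved MpPTB8 across the threshold at 6 h of nitrate return (0.699), 72 h of sucrose return (-0.609), in sucrose-starved Mpcsd-2 (0.577), in nitrate-starved Mphd9-14 (-0.597) and between phosphate-starved Mpcsd-2 and Mphd9-14 (0.383). Nitrate-starved Mphd9-14 also passed with no filter (-0.602) and with DESeq2 (-0.595), as did, with DESeq2, the response of Mpcsd-2 against Mperf20-21 (0.87) and Mphd9-14 (0.877) and its starved level against Mphd9-14 (0.388). The cause was not tested. Leaving out 1 library gave ranges of 1.61 to 4.47 for MpPTB4 at 6 h of nitrate return and -11.4 to -6.63 at 72 h of phosphate return. For MpPTB8 they were 0.106 to 0.828 under nitrate starvation of Tak-1, 0.487 to 1.2 and -0.837 to -0.125 at 6 and 72 h of nitrate return, -0.797 to -0.444 at 72 h of sucrose return, 0.725 to 1.07 and 0.768 to 1.08 for the response of Mpcsd-2 against Mperf20-21 and Mphd9-14, and 0.324 to 0.561 for its starved level against Mperf20-21. With the replicate block no call of either gene changed (MpPTB8 in phosphate-starved Mpcsd-2 was 3.67); same-numbered libraries had mean correlations of deviations of -0.013, 0.00255 and 0.0498 in the 3 tables, so the numbers were not taken as pairs. Numbers of called genes also changed, and the cause was not tested: with only the groups compared, phosphate starvation called 542, 906 and 707 genes in Mpcsd-2, Mperf20-21 and Mphd9-14 in place of 1026, 602 and 303. In the same way nitrate starvation called 30 and 572 in Mpcsd-2 and Mphd9-14 in place of 243 and 160, sucrose starvation of Mpcsd-2 249 in place of 3442, phosphate against nitrate starvation 192, 474 and 557 in place of 690, 234 and 149, phosphate against sucrose starvation of Mpcsd-2 1136 in place of 4095, the differences of response 4, 11 and 2 in place of 12, 42 and 1, and the starved levels of Mperf20-21 against Mphd9-14 525 in place of 136. DESeq2 called 27 genes for the response of Mpcsd-2 against Mperf20-21, and the replicate block 0 for Mperf20-21 against Mphd9-14. Leaving out 1 library moved the number of called genes by over 1.5 times in 55 of 202 such fits. Depth limits MpPTB4 outside phosphate starvation, where 1 library often holds most of the counts.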
